A study of Mus musculus with 7 samples.

Results

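The genes described here encode 7 chemokine receptors, Ccr9, Ccr7, Cxcr3, Cxcr4, Cx3cr1, Ccr2 and Ccr1, which were picked by name from a table of 22680 gene rows. All 7 were found, each with an Entrez ID. They were chosen with their levels in these libraries and their difference between genotypes already known, so that difference is given as a description and supports nothing. RNA was sequenced from hematopoietic cells of C57BL/6 mouse fetal livers at 13.5 days post coitum. Wild-type LSK cells gave 3 libraries (lineage marker negative, Sca-1 and c-Kit positive, the fraction that holds stem cells and multipotent progenitors). Uhrf1-/- LSK cells gave another 3. The last, from wild-type fetuses, held LK cells (c-Kit positive without Sca-1, progenitors further along in differentiation). Uhrf1 encodes the protein that brings the maintenance DNA methyltransferase to replicated DNA. The sources used here do not give how the allele was made, how many fetuses went into a library or which cells carry the deletion.

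Chemokine receptors are seven-pass membrane proteins that couple to inhibitory G proteins and steer cells up gradients of small secreted ligands. Ccr9 and Ccr7, with their ligands Ccl25 and Ccl19 and Ccl21, guide progenitors to the fetal and adult thymus, and Cxcr4 with Cxcl12 holds stem cells in the bone marrow niche. Ccr2, Ccr1 and Cx3cr1 are best known from monocytes, macrophages and their progenitors, and Cxcr3 from activated T cells and other interferon-exposed lymphocytes.

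In these libraries the 7 receptors differed in how the LK library compared with wild-type LSK cells. Ccr9, Ccr7 and Cxcr3 were high in wild-type LSK cells and lower both in Uhrf1-/- LSK cells and in the LK library. Ccr1, Ccr2 and Cx3cr1 were at or below 1.51 FPKM (a read level scaled to transcript length and library size) in LSK cells and highest in the LK library. Cxcr4 was at like levels in wild-type LSK and LK cells and lower in Uhrf1-/- LSK cells. The mean of every receptor was lower in Uhrf1-/- than in wild-type LSK cells, by 1.42 times for Ccr1 and by up to 7.62 times for Ccr7. For Cx3cr1 it was lower by 7.27 times. The genotypes did not overlap for Ccr9, Ccr7, Cxcr4 and Cx3cr1, beside 6.02% of genes above 0 in any LSK library with Uhrf1-/- lower. They overlapped for Cxcr3, Ccr1 and Ccr2. Of 16936 genes above 0 in any library, the LK value lay below the wild-type LSK range for 26.8% and above it for 30.2%.

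**Figure D1:**
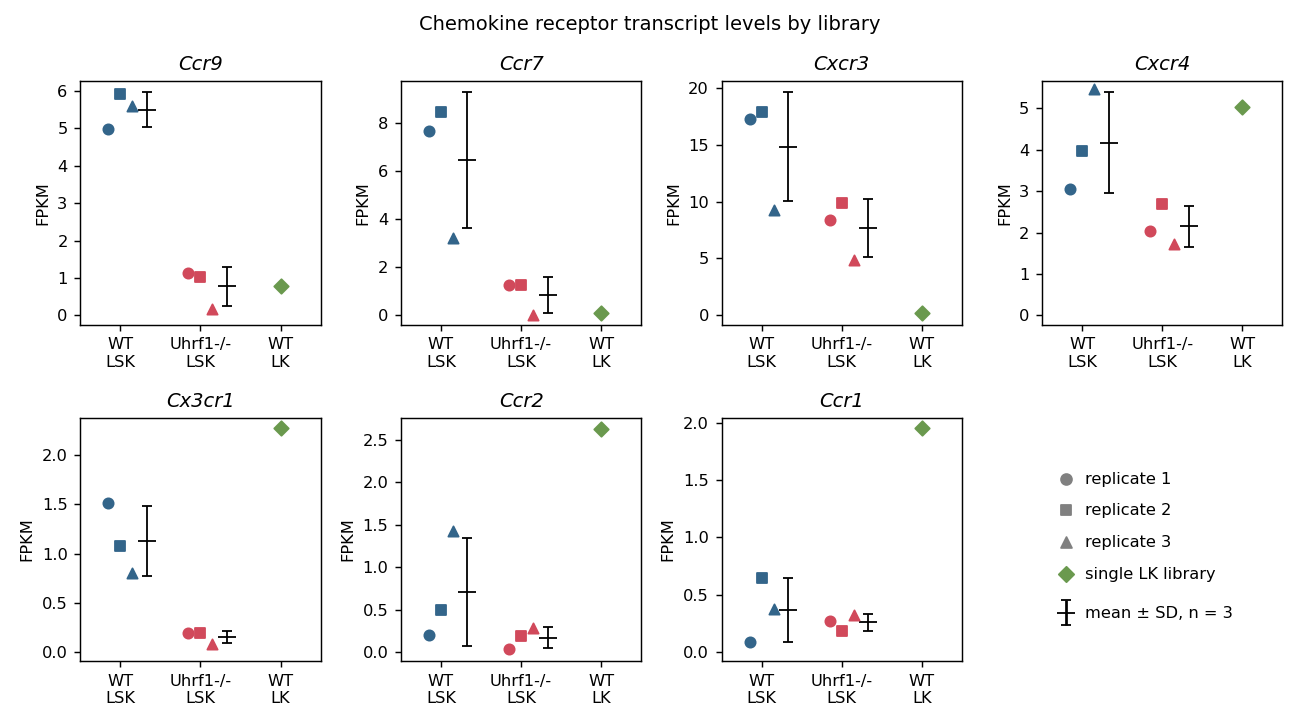
FPKM of each receptor (vertical axis, own scale per panel, from 0) in the wild-type LSK, Uhrf1-/- LSK and wild-type LK libraries. Symbols give the replicate number and black bars the mean ± SD of 3 libraries; the Ccr9, Ccr7, Cxcr4 and Cx3cr1 values of the Uhrf1-/- libraries all lie below those of the wild-type LSK libraries.

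Per library the deposited count values added up to 15556959 to 21017402, which corresponds to 16808501 to 25803042 estimated reads after dividing by the value of 1 read. Uhrf1 itself stood at 63.0 to 113 FPKM for wild-type and 8.78 to 18.6 FPKM for Uhrf1-/- LSK libraries, so its level follows the labels. The gate gene Ly6a (Sca-1) stood at 26.4 to 96.4 FPKM in the LSK libraries and at 0.321 FPKM in the LK library, and Kit at 24.4 to 56.6 FPKM in all 7. Wild-type replicate 2 stood apart in the share of ribosomal protein genes (4.75% of the count values, against 10.6% to 15.7% elsewhere). Replicate 3 of both genotypes stood apart in the immediate-early gene Junb (5.31 and 22.4 FPKM, against 188 to 250 FPKM in replicates 1 and 2). The LK library, at 8.09 FPKM of Junb, was like replicate 3 in this. Megakaryocyte markers summed to 105 to 190 FPKM in wild-type and to 185 to 274 FPKM in Uhrf1-/- LSK libraries, and their part in the receptor levels was not tested.

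Ccr9 (Entrez gene 12769; GRCm38 chromosome 9, 123767211 to 123783457, plus strand, protein coding) is the receptor for Ccl25. It stood at 4.99, 5.92 and 5.61 FPKM in wild-type LSK replicates 1, 2 and 3, at 1.12, 1.02 and 0.18 FPKM in the Uhrf1-/- replicates and at 0.788 FPKM in LK cells. The wild-type values lay close together, every Uhrf1-/- value was below all of them, and the LK value lay inside the Uhrf1-/- range. Wild-type cells averaged 5.51 ± 0.477 FPKM and mutant cells 0.775 ± 0.518 FPKM (SD over 3 libraries each), a ratio of 7.1. The log2 fold change was -1.92 (SE 0.28, limma). It is taken on log2(FPKM + 1), where the added 1 shrinks the change of low genes. These values rest on 525, 857 and 992 estimated reads in wild-type, on 25 to 132 in Uhrf1-/- and on 88 in LK libraries. GENCODE M21 places 1932 of the exonic bases of Ccr9 under a gene on the other strand, AC165425.1, and 22 under another there, Slc6a20a. On the same strand as Ccr9, 269 bases are shared with Gm17200. The sources used here do not give whether counting used strand. In bulk RNA, fewer cells of a type and less RNA per cell cannot be told apart.

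Ccr7 (Entrez gene 12775; chromosome 11, 99144199 to 99155077, minus strand, protein coding) is the receptor for Ccl19 and Ccl21. Wild-type LSK replicates 1, 2 and 3 had 7.69, 8.46 and 3.21 FPKM, against 1.28, 1.26 and 0 FPKM in the Uhrf1-/- replicates. The genotypes did not overlap, and in each genotype replicate 3 was the lowest. The averages were 6.45 ± 2.84 FPKM for wild-type and 0.847 ± 0.734 FPKM for Uhrf1-/- cells (SD over 3 libraries each), with a log2 fold change of -2.02 (SE 0.41, limma). The estimated reads were 205, 335 and 140 against 36, 35 and 0. A count of 0 in Uhrf1-/- replicate 3 allows up to 3 reads, or 0.165 CPM, against 5.43 CPM in wild-type replicate 3 (CPM, count values scaled to the library total). The LK library had 0.0834 FPKM from 3 estimated reads, the lowest level of any receptor there.

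Cxcr3 (Entrez gene 12766; chromosome X, 101731535 to 101734147, minus strand, protein coding) binds the interferon-induced ligands Cxcl9, Cxcl10 and Cxcl11, and it had the highest level of the 7 in LSK cells. Its levels were 17.3, 17.9 and 9.30 FPKM for wild-type LSK replicates 1, 2 and 3, and 8.42, 9.84 and 4.89 FPKM for the Uhrf1-/- replicates. The groups overlapped, because wild-type replicate 3 was below Uhrf1-/- replicate 2. Between libraries of the same number the Uhrf1-/- value was 48.6%, 55.0% and 52.6% of the wild-type value. Wild-type cells averaged 14.8 ± 4.80 FPKM and mutant cells 7.71 ± 2.55 FPKM (SD over 3 libraries each; log2 fold change -0.86, SE 0.34, limma). The LK library had 0.242 FPKM from 7 estimated reads, below every LSK library. The T cell gene Cd3e and the NK cell gene Ncr1 were listed at 0 in all 7 libraries, and Cd8a was at most 0.0143 FPKM. Other T and NK cell genes were detected, with Cd3g at up to 0.82 FPKM and Klrb1c at up to 1.01 FPKM. Cd4 ranged from 2.18 to 2.68 FPKM in wild-type LSK and from 1.48 to 2.38 FPKM in Uhrf1-/- LSK libraries. Of 14 genes on the T, B and NK cell marker list, 12 were above 0 in some library, and they summed to 93.9 to 189 FPKM in wild-type and 142 to 200 FPKM in Uhrf1-/- LSK libraries, mostly from Cd79b and Nkg7.

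Cxcr4 (Entrez gene 12767; chromosome 1, 128588199 to 128592299, minus strand, protein coding) is the receptor for Cxcl12. It stood at 3.06, 3.98 and 5.47 FPKM in wild-type LSK replicates 1, 2 and 3, at 2.04, 2.68 and 1.72 FPKM in the Uhrf1-/- replicates and at 5.04 FPKM in LK cells. The genotypes did not overlap, but the highest Uhrf1-/- value came near the lowest wild-type value. Wild-type cells averaged 4.17 ± 1.22 FPKM and mutant cells 2.14 ± 0.490 FPKM (SD over 3 libraries each; log2 fold change -0.70, SE 0.27, limma). The difference was largest in replicate 3, where the Uhrf1-/- value was 31.3% of the wild-type value, against 66.6% and 67.3% in replicates 1 and 2.

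Cx3cr1 (Entrez gene 13051; chromosome 9, 120048683 to 120068296, minus strand, protein coding), the receptor for the membrane-bound chemokine Cx3cl1, had 1.51, 1.08 and 0.803 FPKM in wild-type LSK replicates 1, 2 and 3, against 0.192, 0.189 and 0.0866 FPKM in the mutant ones. The genotypes did not overlap, and the LK library was above all of them with 2.27 FPKM. The mean over the LSK libraries (0.644 FPKM) was below the minimum of 1 FPKM for the fit over all genes. In a fit with no minimum the log2 fold change was -0.87 (SE 0.16, limma), and the means were 1.13 ± 0.357 and 0.156 ± 0.0600 FPKM (SD over 3 libraries each). The estimated reads were 101, 107 and 90 in wild-type, 14, 14 and 7 in Uhrf1-/- and 187 in LK libraries.

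Ccr2 (Entrez gene 12772; chromosome 9, 124101918 to 124109140, plus strand, protein coding), the receptor for Ccl2 that moves monocytes out of the bone marrow, stood at 0.202, 0.497 and 1.42 FPKM in wild-type LSK replicates 1, 2 and 3. In the Uhrf1-/- replicates it stood at 0.0351, 0.188 and 0.282 FPKM. The groups overlapped, the Uhrf1-/- library was the lower one at every replicate number, and the LK library had 2.63 FPKM, above every LSK library. With no minimum the log2 fold change was -0.49 (SE 0.26, limma). Uhrf1-/- replicate 1 held 4 estimated reads of Ccr2, so its level is known only coarsely.

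Ccr1 (Entrez gene 12768; chromosome 9, 123962126 to 123968692, minus strand, protein coding), a myeloid receptor for Ccl3, Ccl6 and Ccl9 among others, had 0.0882, 0.642 and 0.371 FPKM in the wild-type LSK replicates, against 0.273, 0.180 and 0.323 FPKM in the mutant ones. The wild-type values enclosed the Uhrf1-/- values. The log2 fold change with no minimum was -0.10 (SE 0.16, limma). Ccr1 was higher in the Uhrf1-/- library at replicate number 1 and lower at the others. At number 1 the wild-type library held 7 estimated reads and the Uhrf1-/- library 25, so that difference is known only coarsely. The LK library had 1.95 FPKM from 149 estimated reads.

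Markers of macrophages, which carry these myeloid receptors, differed in their pattern over the libraries. The complement genes were lowest in replicate 3 of each genotype, while Csf1r was lower in every Uhrf1-/- library than in every wild-type LSK library. The sum of the complement genes C1qa, C1qb and C1qc was 146, 70.1 and 1.12 FPKM for wild-type LSK replicates 1, 2 and 3, and 33.4, 35.4 and 2.12 FPKM for the mutant replicates. The LK library had 0.771 FPKM. All 14 genes of the macrophage list were above 0 in some library, and they summed to 70.9 to 262 FPKM in wild-type and 53.1 to 173 FPKM in Uhrf1-/- LSK libraries. Vsig4, Cd163 and Mertk reached at most 0.0506, 0.0108 and 0.0217 FPKM. Adgre1, Marco, Fcgr1 and Cd5l reached 1.57, 1.74, 1.35 and 1.04 FPKM, and Lyz2 ranged from 46.5 to 170 FPKM over all libraries. Csf1r, the growth factor receptor of monocytes and macrophages, had a log2 fold change of -1.67 (SE 0.27). Of the 5 tested genes of this list, it alone was called lower without the block (limma adjusted p = 0.0429), beside 0.0566% of all genes tested. With the block it was called as well, but not in the blocked fit without pair 2 (limma adjusted p = 0.097). It had 9.51, 14 and 10 FPKM in the wild-type LSK replicates, against 3.33, 2.55 and 2.55 FPKM in the mutant ones, and 9.19 FPKM in the LK library. In replicate 3 the Uhrf1-/- value was 10.8% of the wild-type value for Cx3cr1, 19.9% for Ccr2 and 87.1% for Ccr1. All of these receptors were at their highest in the LK library. The 11 monocyte and neutrophil markers in the table summed to 1030 to 1510 FPKM in wild-type LSK, 1150 to 1200 FPKM in Uhrf1-/- LSK and 3140 FPKM in LK libraries, mostly from Mpo and Prtn3. These sums hide lower markers. S100a8 had 68, 17.9 and 13.1 FPKM in the wild-type LSK replicates, against 3.18, 5.22 and 1.11 FPKM in the mutant ones. Its limma adjusted p was 0.23, with the block 0.0137. Of the 7 tested markers, 6 had a negative log2 fold change and 1 a positive one. The part of these cells in the receptor levels was not tested.

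**Figure D2:**
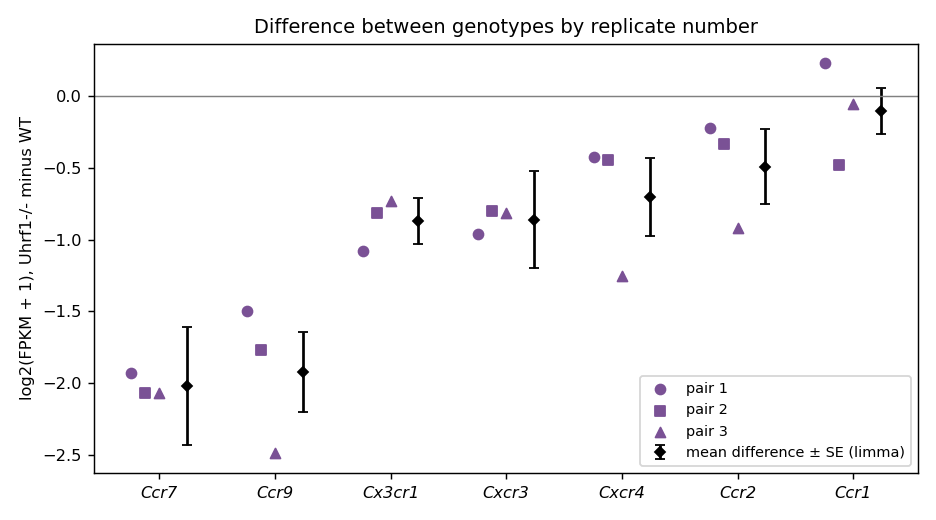
Difference in log2(FPKM + 1) between Uhrf1-/- and wild-type LSK cells (vertical axis) for each receptor, as purple symbols for libraries of the same replicate number and as a black diamond for the mean difference ± SE from limma. Ccr1 alone has a point above 0, Cxcr3 has nearly the same difference at each number, and Ccr9, Cxcr4 and Ccr2 differ most at number 3.

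By the rule of all 3 Uhrf1-/- libraries below all 3 wild-type libraries, 4 of the 7 receptors were lower (Ccr9, Ccr7, Cxcr4 and Cx3cr1), beside 6.02% of the 16724 genes above 0 in any LSK library (6.16% of the 10608 genes tested). Only 4 receptors, Ccr9, Ccr7, Cxcr3 and Cxcr4, reached the minimum mean of 1 FPKM. Among these, Ccr9 was called lower at a limma adjusted p under 0.05, beside 0.0566% of the 10608 genes tested. With the replicate number as a block, Ccr9 and Ccr7 were called lower, beside 0.83% of genes, and none higher, beside 1.23%. With no minimum, limma called 0 of 16724 genes in either direction without or with the block (967 and 1398 at an unadjusted p under 0.05), so no call made with the minimum, of receptors or of other genes, stood there. Since the receptors were chosen on this contrast, nothing is read from these shares. Ccr9 was not called when any 1 of the 6 LSK libraries was left out of the fit without the block. With the block, Ccr7 was called without pair 1, 2 or 3 in turn, and Ccr9 was not called without pair 2, the pair of the library with few ribosomal protein reads. The Ccr7 difference in pair 3 (-2.07 on log2(FPKM + 1)) rests on a value of 0 in Uhrf1-/- cells, so its size is set by the added 1. The blocked fit was not run with another pseudocount.

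The order of the receptors differed between the groups. In wild-type LSK cells the mean level ran from Cxcr3 (14.8 FPKM) through Ccr7, Ccr9, Cxcr4, Cx3cr1 and Ccr2 to Ccr1 (0.367 FPKM), all on the FPKM scale. Cxcr3 lay above Ccr7 and Cxcr4 above Cx3cr1 in every library, while the ranges of Ccr7 and Ccr9, of Ccr9 and Cxcr4, of Cx3cr1 and Ccr2, and of Ccr2 and Ccr1 overlapped. In Uhrf1-/- LSK cells Cxcr3 was again highest (7.71 FPKM), Cxcr4 was second (2.14 FPKM) without overlap with its neighbours, and the ranges of each pair of neighbours from Ccr7 down overlapped. In LK cells Cxcr4 was highest (5.04 FPKM), followed by Ccr2, Cx3cr1, Ccr1, Ccr9, Cxcr3 and Ccr7.

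Against the 3 wild-type LSK libraries, the single LK library was below the range for Ccr9, Ccr7 and Cxcr3, above it for Ccr1, Ccr2 and Cx3cr1, and inside it for Cxcr4. Of 16936 genes above 0 in any library, 26.8% lay below and 30.2% above that range. There is no replicate check for LK cells, and no test was made. The wild-type LSK mean was 6.99 times the LK level for Ccr9 (95% exact Poisson interval from the LK reads, 5.68 to 8.72). It was 77.3 times for Ccr7 (26.5 to 375) and 61.2 times for Cxcr3 (29.6 to 152). The LK level was 5.31 times the wild-type LSK mean for Ccr1, 3.72 times for Ccr2 and 2 times for Cx3cr1. These intervals cover counting error only. The LK library shared the low Junb level of replicate 3. Over the genes tested, its log2(FPKM + 1) values had r = 0.931 with wild-type replicate 3. With wild-type replicates 1 and 2 they had r = 0.874 and 0.872. The part of this likeness to replicate 3 in the LK differences was not tested. The LK and the Uhrf1-/- comparisons share the wild-type LSK libraries.

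**Figure D3:**
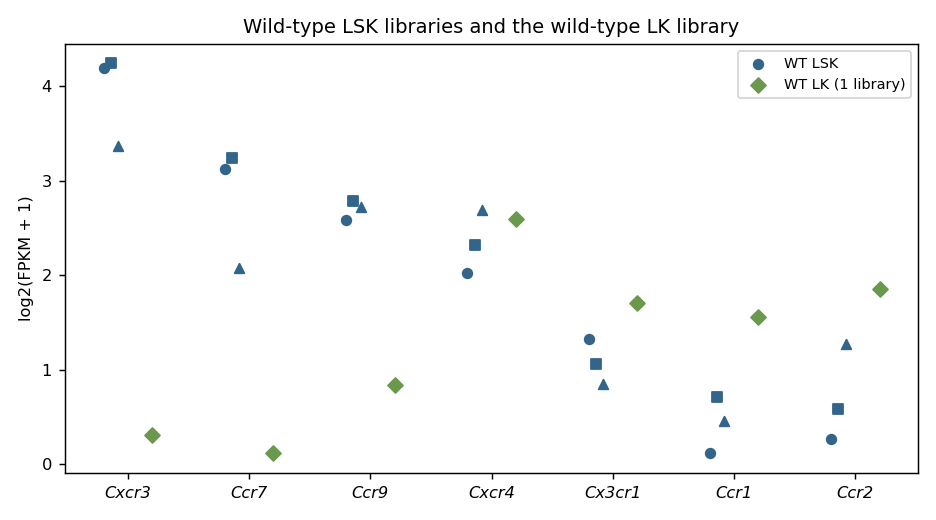
Level of each receptor on the log2(FPKM + 1) scale (vertical axis) in the 3 wild-type LSK libraries (blue; circle, square and triangle for replicates 1, 2 and 3) and the 1 wild-type LK library (green diamond). The LK point lies below the LSK points for Cxcr3, Ccr7 and Ccr9, among them for Cxcr4, and above them for Cx3cr1, Ccr1 and Ccr2.

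Ccr7, Cxcr3 and Cx3cr1 were lower in replicate 3 than in replicates 1 and 2 of both genotypes. Wild-type replicate 3 held 39.7% of the mean of wild-type replicates 1 and 2 for Ccr7, 52.9% for Cxcr3 and 61.9% for Cx3cr1. In Uhrf1-/- cells it was 0% for Ccr7, 53.6% for Cxcr3 and 45.4% for Cx3cr1. Ccr2 went the other way, at 406% in wild-type and 253% in Uhrf1-/- cells. Ccr9 was at 103% in wild-type and 16.8% in Uhrf1-/- cells, so only 1 genotype had a low replicate 3 for it. The transcription factor gene Klf2, which regulates lymphocyte trafficking receptors, had 146, 117 and 0.708 FPKM in replicates 1, 2 and 3 of wild-type, against 58.7, 58.6 and 2.11 FPKM in those of Uhrf1-/- cells. The LK library had 0.165 FPKM of Klf2. The part of Klf2 in these differences was not tested.

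Ccr9, Ccr1 and Ccr2 lie in 1 gene cluster on chromosome 9. From the start of Ccr9, the receptor genes Cxcr6, Xcr1, Ccr1, Ccr1l1, Ccr3 and Ccr2 start within 334.7 kb. Of these 7 genes with Ccr9, only Ccr9, Ccr1 and Ccr2 exceeded 1 FPKM in any library. Cxcr6 (123806477 to 123811754) reached at most 0.314 FPKM, Xcr1 at most 0.0940 FPKM, Ccr1l1 at most 0.451 FPKM and Ccr3 at most 0.163 FPKM. Within this cluster Ccr9 was at its highest in wild-type LSK cells, and Ccr1 and Ccr2 in LK cells. Cx3cr1 lies on the same chromosome outside the cluster, next to Ccr8, which was listed at 0 in all 7 libraries.

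**Figure D4:**
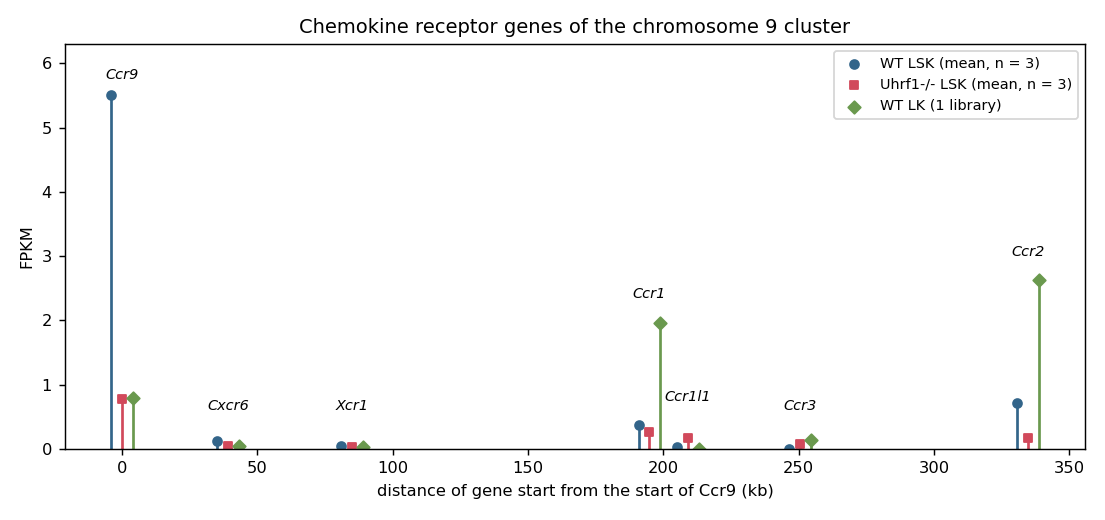
FPKM (vertical axis) of 7 receptor genes of the chromosome 9 cluster, placed by the distance of their start from the start of Ccr9 in kb, as mean of 3 wild-type LSK libraries (blue), mean of 3 Uhrf1-/- LSK libraries (red) and the LK library (green), shifted by 4 kb for legibility. Only Ccr9, Ccr1 and Ccr2 rise above 1 FPKM.

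Uhrf1 acts on methylated CG dinucleotides, so their number is given for the 6 receptors with an entry among 32851 RefSeq promoters of GRCm38.p6. In the 250 bases before the RefSeq start there were 3 CG in Ccr9, 3 in Cxcr3, 4 in Cx3cr1, 1 in Ccr1, 1 in Ccr2 and 19 in Cxcr4. Not all of these bases lie outside transcripts: the window of Ccr2 lies inside the gene span given above, with 233 of its bases in GENCODE M21 exons. All 250 bases of the Cx3cr1 window, 122 of the Cxcr3 window with its 3 CG and 42 of the Ccr9 window are exonic as well. The motif searched was CG, which reads the same on both strands. It was present in 92.1% of all promoters, with a median of 6. At least 3 CG were present in 71.0% of promoters and at least 19 in 19.7%. Below are the windows of Ccr9, the receptor with the steadiest wild-type level, and of Cxcr4, the receptor with the most CG, 5′ to 3′ on the gene strand, without exonic bases, with CG in capitals. DNA methylation was not measured here, and the count of CG is a description of the sequence.
Ccr9, chr9:123766961-123767168, plus strand: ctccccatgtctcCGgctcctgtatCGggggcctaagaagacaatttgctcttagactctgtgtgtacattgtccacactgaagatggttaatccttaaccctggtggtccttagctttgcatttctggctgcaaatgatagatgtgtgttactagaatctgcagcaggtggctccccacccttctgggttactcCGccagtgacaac
Cxcr4, chr1:128592300-128592549, minus strand: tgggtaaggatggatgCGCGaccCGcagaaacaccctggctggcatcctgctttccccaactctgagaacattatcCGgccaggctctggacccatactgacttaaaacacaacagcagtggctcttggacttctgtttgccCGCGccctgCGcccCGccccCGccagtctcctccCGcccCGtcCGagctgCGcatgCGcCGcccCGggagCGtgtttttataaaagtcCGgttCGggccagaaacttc

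The other receptors of the family were mostly low. Of 10 further chemokine receptor genes, 9 stayed below 1 FPKM in every library, and Ccr8 was listed at 0 throughout. The exception was Cxcr2, the neutrophil receptor, which stood at 35.1, 6.56 and 50.4 FPKM in wild-type LSK, 54.2, 51.2 and 101 FPKM in Uhrf1-/- LSK and 164 FPKM in LK libraries. Uhrf1-/- values lay above all wild-type values, but the difference did not pass (log2 fold change 1.46, SE 0.70, limma adjusted p = 0.942, with the block 0.137). Of 5 atypical receptors, which take up chemokines without G protein signalling, only Ccrl2 reached the minimum (log2 fold change -0.25, adjusted p = 0.943), and Ackr1 stood at 1.66 FPKM in LK cells and at most 0.0565 FPKM in LSK cells.

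Of 18 ligands of the 7 receptors, 7 were tested. None was called without the block (3 had an unadjusted limma p under 0.05), and with the block Ccl3 and Ccl9, both ligands of Ccr1, were called lower in Uhrf1-/- cells, beside 0.83% of all genes tested. Of the 7, 4 had a positive log2 fold change. Ccl9 had 12.3, 15.7 and 13.3 FPKM in the wild-type LSK replicates, against 5.47, 5.34 and 2.46 FPKM in the mutant ones, without overlap (log2 fold change -1.49, SE 0.31, limma adjusted p = 0.104, with the block 0.00239). It was not called in the blocked fit without pair 2 (adjusted p = 0.125). Ccl3 had 67.4, 63.9 and 7.28 FPKM in the wild-type replicates, against 12.8, 15.8 and 0.889 FPKM in the mutant ones. Its level in replicate 3 was the lowest of each genotype, and the groups overlapped (log2 fold change -2.13, SE 1.27, adjusted p = 0.942, with the block 4.86e-05). Ccl5, a further ligand of Ccr1, was on the other side, with at most 3.46 FPKM in the wild-type replicates and 3.74, 5.23 and 9.33 FPKM in the mutant ones. These groups did not overlap, but Ccl5 was not called (log2 fold change 1.17, SE 0.37, limma adjusted p = 0.473, with the block 0.0808).

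The ligands of Ccr9, Ccr7 and Cxcr4 were low, or at like levels in the 2 genotypes of LSK cells. Ccl25, the Ccr9 ligand, ranged from 2.79 to 4.69 FPKM for wild-type and from 2.77 to 5.70 FPKM for Uhrf1-/- LSK libraries (log2 fold change 0.04, SE 0.30, limma adjusted p = 0.993). The LK library had 7.32 FPKM of Ccl25, above every LSK library. Cxcl12, the Cxcr4 ligand made by stroma, was at most 0.0267 FPKM, and Ccl21a was listed at 0 in all libraries. Cxcl10, a ligand of Cxcr3, had 4.84, 4.37 and 0.609 FPKM in the wild-type replicates, against 8.27, 10.8 and 1.97 FPKM in the mutant ones, higher at each number but not called (adjusted p = 0.942, with the block 0.0543).

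Genes that act downstream of the receptors were not called in either direction. Of 26 tested signalling genes, 0 were called by limma with or without the block (0 and 3 at an unadjusted p under 0.05, without and with it), with a median log2 fold change of -0.18 beside -0.03 over all genes tested. The lowest unadjusted p belonged to Pik3r6, Elmo1 and Fermt3, with log2 fold changes of -0.54, -0.58 and 0.54. Gnai2, the main inhibitory G protein of blood cells, ranged from 304 to 381 FPKM for wild-type and from 374 to 441 FPKM for Uhrf1-/- LSK libraries. Of 12 tested desensitisation genes, 0 were called (2 and 4 at an unadjusted limma p under 0.05), and Rgs3, Rgs18 and Arrb1 had the lowest p, with log2 fold changes of -0.75, -0.75 and 0.42. Of 22 tested adhesion genes, 0 were called (2 and 4 at an unadjusted limma p under 0.05), with a median of -0.05. Podxl, Cd34 and Esam came nearest, with log2 fold changes of 0.86, -0.75 and 0.68 and adjusted p-values of 0.488, 0.876 and 0.914.

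Of 11 tested genes of thymus seeding and lymphoid priming, all had a negative log2 fold change, beside 53.9% of all genes tested, with a median of -0.80. This list was chosen with earlier results of these libraries known. None was called without the block (7 at an unadjusted limma p under 0.05, beside 591 of the 10608 genes tested). With the block 5 were called lower, beside 0.83% of all genes: Flt3, Il7r, Notch1, Rag2 and Satb1. Notch1, the receptor that commits progenitors to the T lineage, had 12.4, 7.42 and 15.2 FPKM in the wild-type replicates, against 4.67, 4.18 and 4.89 FPKM in the mutant ones, without overlap (log2 fold change -1.14, SE 0.30, limma adjusted p = 0.241, with the block 0.0157). Without pair 2 only Flt3 was called with the block. Ikzf1, Lck, Ltb, Gata3, Bcl11a and Mef2c were not called in either fit.

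**Figure D5:**
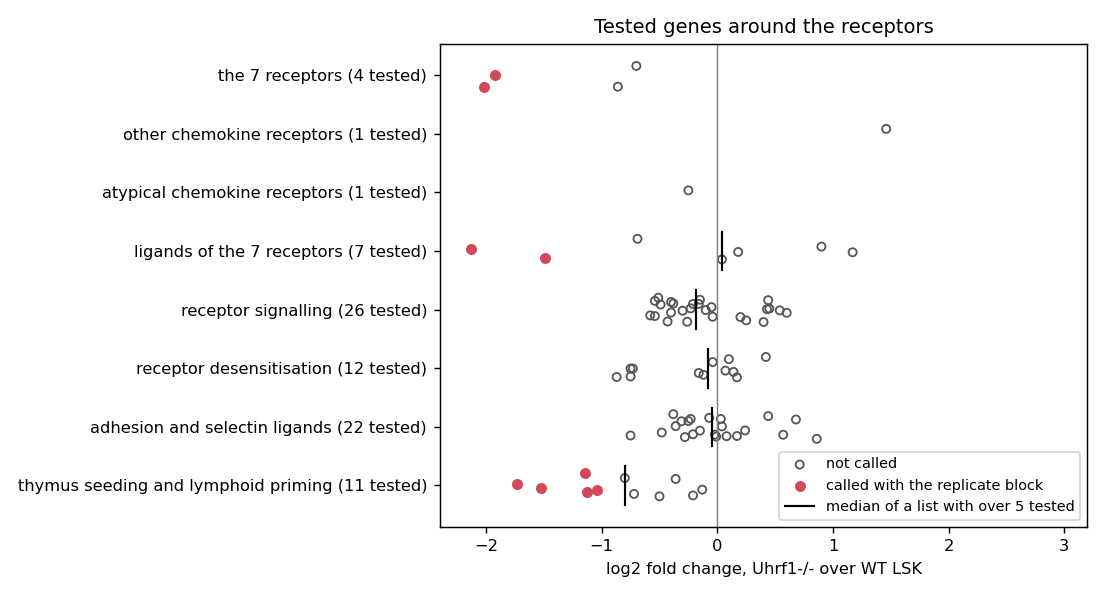
Log2 fold change of Uhrf1-/- over wild-type LSK cells (horizontal axis) for the tested genes of the receptors and 7 pathway lists (rows, with the number tested; vertical scatter within a row has no meaning). Filled points were called with the replicate block, and bars mark the median of lists with over 5 tested genes; among these 8 rows, the calls lie in the receptors, their ligands and the lymphoid priming genes.

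Genes with the most similar pattern were sought for the 4 tested receptors, by the root mean square difference of centred log2(FPKM + 1) values over the 7 libraries. For Ccr9 these were Stc1 (0.29), Slc26a11 (0.30) and Lgmn (0.32), for Ccr7 Slc18a1 (0.33), Flt3 (0.35) and Sytl1 (0.36). For Cxcr4 they were Atg4c (0.08), Tceanc (0.11) and Dus4l (0.12), and for Cxcr3 Ckb (0.16), Gimap6 (0.21) and Gem (0.27). Lgmn, the most abundant of the 3 for Ccr9, stood at 6.33, 13.7 and 8.09 FPKM in wild-type LSK, 3.42, 2.98 and 1.68 FPKM in Uhrf1-/- LSK and 1.75 FPKM in LK libraries. Ckb stood at 75.5, 67.9 and 35.1 FPKM, at 46.4, 44.9 and 25.2 FPKM and at 4.31 FPKM in the same order, with replicate 3 lowest in each genotype as for Cxcr3. Genes with low values have small differences on this scale, so the measure cannot be compared between receptors.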

How the data were processed

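The authors deposited 1 table with 2 values per gene and library. The first is named a count per the file headers but is a scaled signal that is not whole: of the values under 100 steps, 98.2% to 98.6% were whole multiples (tolerance 0.02 steps) of a step particular to the library. The deposited signal was divided by that step for estimated reads, and no count model was run because other values were not whole. The second is FPKM, as deposited. TopHat2 2.0.9, Cufflinks 2.1.1 and mm10 are named per the submitters' processing notes, and the sources used here do not give annotation or strand.

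Genotypes were compared over the 6 LSK libraries with limma 3.58.1 (R 4.3.3) on log2(FPKM + 1) for genes averaging 1 FPKM or more (trend, robust, two-sided, Benjamini-Hochberg, threshold 0.05), after a test on simulated data. Replicate numbers were read as pairs, since the deviations of same-numbered libraries from their group mean had r = 0.349, 0.332 and 0.645. This comes from the data, as no label states what same-numbered libraries have in common, and wild-type replicate 2 with Uhrf1-/- replicate 1 reached 0.213. No 2 libraries agreed within sampling noise (lowest median chi-square 3.32, where noise gives 0.455). No label says that replicates came from separate animals, so p-values reflect only the spread of these libraries, which may be technical. Coordinates are from RefSeq GRCm38.p6, strands and exons from GENCODE M21.

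The receptors and gene lists were chosen with earlier results of these data known. Named genes were the receptors, genes called in either fit from the lists other than cell type markers and gate genes (otherwise the 3 with the lowest unadjusted p), the most abundant ligand and further receptor, receptor genes next to one of the 7 and the 3 nearest patterns. Ccl5, Ccl25, Cxcl12, Ccl21a, Cxcl10, Gnai2, the named markers, Ackr1 and the uncalled priming genes were named after their values were seen. One further receptor gene is not reported here. Receptors carry no p-value, because they were chosen on this contrast. Alternatives changed the pseudocount (0.1 and 0.5), the minimum, the measure, the scaling, the block (also with no minimum, added after seeing the data) and the libraries used.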

Additional observations from a re-analysis of the deposited data

How the results depend on the processing

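The limma fit called 12 genes higher and 6 lower. With the replicate block it called 131 and 88, without pair 1 338 and 318, without pair 2 13 and 8, and without pair 3 117 and 84. Fits without a pair leave few libraries to estimate the spread. With no minimum limma called 0 and 0 (967 genes at an unadjusted p under 0.05), and the replicate block with no minimum, an alternative chosen after seeing the data, also called 0 and 0 (1398 genes), so every call with the block is lost there. On CPM it called 16 and 11. Leaving out 1 library gave 0 to 3 higher and 0 to 1 lower. Receptors called lower numbered 1, with the block 2, and in the blocked fits 2 without pair 1, 1 without pair 2 and 2 without pair 3. They numbered 0 with a pseudocount of 0.1, 0 with no minimum, 0 with the block and no minimum and 0 to 0 when 1 library was left out. Ligands called lower were 2 with the block and 2, 1 and 2 without pairs 1, 2 and 3, and 2 were called higher without pair 1. Lymphoid priming genes called lower were 5 with the block, 5, 1 and 3 without pairs 1, 2 and 3, and 1 on count values. Without pair 1 the blocked fit also called 1 adhesion gene and 1 further receptor higher, and 2 desensitisation genes and 1 transcription factor lower, and without pair 3 1 further receptor higher. Causes were not tested, except that these fits hold fewer libraries. Of the 9 lists other than cell type markers and gate genes, the block changed no other count. Of the marker and gate lists, megakaryocyte genes called higher went from 2 to 4, erythroid from 0 to 1 and gate genes from 0 to 1, and monocyte and neutrophil genes and dendritic cell genes called lower each from 0 to 1. The dendritic cell gene was Flt3, which is also counted among the lymphoid priming genes.

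The log2 fold change of Ccr9 ranged from -2.94 to -1.64, Ccr7 from -3.40 to -1.63, Cxcr4 from -0.91 to -0.43, Cxcr3 from -1.14 to -0.60, Cx3cr1 from -2.26 to -0.75 and Ccr2 from -1.40 to -0.21, all below 0. Ccr1 ranged from -0.25 to 0.04. The LK difference of Cxcr4 changed sign between FPKM (0.25) and count values (-0.04). The edgeR test was not run, since some values are not whole reads.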

Other observations

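Among 9 tested transcription factor genes with a known part in receptor or lymphoid gene control, 0 were called by limma with or without the block (2 and 3 at an unadjusted p under 0.05), and 7 had a negative log2 fold change. Id2, an inhibitor of E proteins, had 26.3, 23.2 and 24.4 FPKM in the wild-type LSK replicates, against 15.3, 15.3 and 4.94 FPKM in the mutant ones, without overlap (log2 fold change -1.13, SE 0.38, limma adjusted p = 0.556, with the block 0.0509). Irf8, a regulator of monocytes and dendritic cells, had 12.1, 13.7 and 22.4 FPKM, against 6.44, 8.85 and 11.3 FPKM, also without overlap (adjusted p = 0.779, with the block 0.126). Tcf4 had a log2 fold change of -0.62 (SE 0.28) and was not called in either fit.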
